A study of Mus musculus with 10 samples.

Results

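The transcription factors that define hepatocyte identity were examined in sorted mouse liver cells as 9 genes listed by name. No measured value enters the rule, but the genes were chosen with earlier results of these data known. They were Hnf4a, the 3 forkhead genes Foxa1, Foxa2 and Foxa3, the CCAAT/enhancer-binding protein genes Cebpa and Cebpb, Prox1, Creb3l3 and Gata4. These are 9 of 29972 genes summed from the deposited tables and 26 of their 85276 transcripts. All 9 genes, and 19 of the 26 transcripts, passed the filter on low values, which asked for 1 TPM (transcripts per 1000000, a level corrected for transcript length) in at least 3 libraries.

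Hepatocytes and the cholangiocytes that line bile ducts both descend from hepatoblasts of the embryonic liver. Hepatocyte genes are held on by a network of liver-enriched factors that bind each other's promoters and enhancers: the nuclear receptor HNF4A, the FOXA proteins, which can bind closed chromatin, and the C/EBP leucine zipper proteins. PROX1, CREB3L3 and GATA4 belong to the same network or act on it, and several of the factors are also known in other cells, among them FOXA1 and FOXA2 in gut, lung and pancreas epithelium and PROX1 in lymphatic endothelium.

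RNA-seq libraries were of 3 kinds: 4 of cholangiocytes derived from hepatocytes (HpC), 3 of cholangiocytes of the liver periphery (pC) and 3 of hepatocytes (H), all sorted by flow cytometry from livers of mice on a mixed C57BL/6, FVB and CD1 background, aged P119 to P151 (postnatal days). HpC and H came from mice of genotype Alb-Cre+/-;Rbpjf/f;Hnf6f/f and pC from Rbpjf/f;Hnf6f/f mice without Cre, so that all groups carried the floxed alleles. The cells of HpC and pC came out of the nonparenchymal fraction after several digestion steps and those of H directly after perfusion. The Alb-Cre transgene drives Cre from the albumin promoter, which is active in the hepatocyte lineage from its embryonic precursors on; Rbpj encodes the DNA-binding effector of Notch signalling, and Hnf6 is another name of Onecut1, a transcription factor of liver and bile duct. Between HpC and pC, cell origin and genotype cannot be told apart, and between HpC or pC and H, cell type cannot be told apart from the way the cells were released, nor, between pC and H, from genotype. The labels give H2, H3 and HpC4 the same age, P139, and do not say whether H2 and H3 came from separate animals, so the spread behind p-values against H could be technical.

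The libraries held 10232 to 14489 genes at 1 TPM or more. Because the deposited values are TPM, read numbers are unknown, and no counting error can be given. Levels below are scaled TPM, that is TPM divided by a trimmed-mean factor per library. Differences are on the log2(scaled TPM + 1) scale with their standard error (SE), and a gene was called at a 5% false discovery rate by limma over all 14765 genes tested. The sums of the 10 hepatocyte markers were 2934 to 5627 scaled TPM in HpC, 1007 to 2651 in pC, against 76070 to 88810 in H. Those of the 10 cholangiocyte markers were 1767 to 2711 in HpC, 5427 to 5612 in pC and 40.7 to 51.8 in H. Most of the gap between HpC and pC was Spp1, 953 in HpC and 4223 in pC on average; the other 9 summed to 872 to 1676 in HpC, 1201 to 1372 in pC and 25.9 to 31.8 in H, a sum taken after the values were seen. Between HpC and pC, 3 of the 10 were called lower in HpC, beside 2.55% of all genes. The HpC1 library held 8 pancreatic acinar markers at a deposited sum of 153200 TPM and HpC2 held 8 squamous epithelium markers at 44620 TPM, against at most 1581 and 7.40 TPM of these in the other libraries. In bulk samples, fewer cells of a type and less RNA per cell cannot be told apart.

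Of the 9 factors, Foxa1 was the one called higher in both cholangiocyte groups than in hepatocytes. Hnf4a, Cebpa, Cebpb, Foxa3, Creb3l3 and Gata4 were called lower in both, and Foxa2 and Prox1 were called lower in HpC than in H but not in pC than in H. Between HpC and pC, Prox1 was the single factor called, and it was lower in HpC. In HpC against pC this was 1 of 9 factors, beside 4.54% of all genes tested (1.99% called higher and 2.55% called lower), and 3 of the 9 had an unadjusted p below 0.05. In HpC against H it was 9 of 9, with 1 higher and 8 lower, beside 59.9% of all genes (30.7% higher and 29.2% lower). In pC against H it was 7 of 9, with 1 higher and 6 lower, beside 59.6% of all genes (31.1% higher and 28.6% lower). The calls against H depended on scaling. On TPM as deposited, with no factor between libraries, the median difference over all genes was 0.87 between HpC and H and 1.20 between pC and H, while after scaling it was 0.08 and 0.11. On that scale 5 of the 9 factors were called in HpC against H (Foxa1 higher, and Hnf4a, Foxa3, Cebpa and Creb3l3 lower), beside 61.4% of all genes. In pC against H it was also 5 (Foxa1 and Prox1 higher, and Hnf4a, Foxa3 and Creb3l3 lower), beside 71.9% of all genes. Comparisons against H share the H libraries and are given side by side only.

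**Figure D1:**
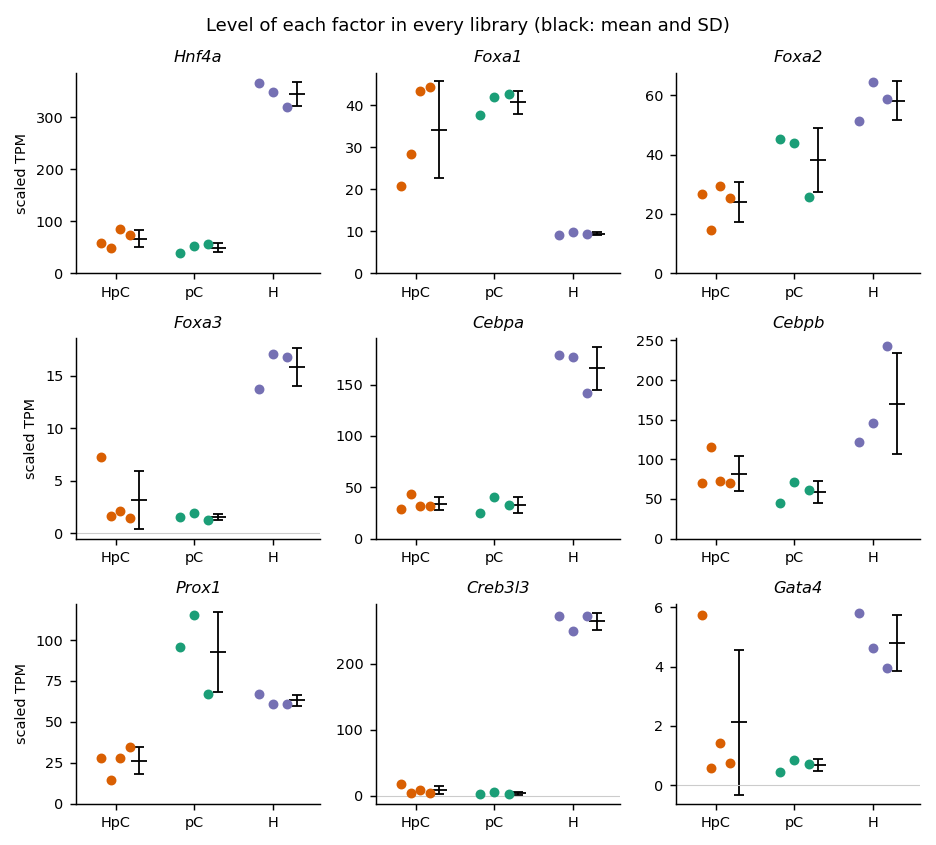
Scaled TPM (vertical axis, linear, a scale of its own in each panel) of the 9 factors in 4 HpC, 3 pC and 3 H libraries; each coloured point is a library and the black mark is the group mean with its SD. The H points stand above all HpC and pC points for Hnf4a, Foxa2, Foxa3, Cebpa, Cebpb and Creb3l3 and below them for Foxa1. The HpC points of Prox1, 14.8 to 34.5, lie below all others.

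Hnf4a (ENSMUSG00000017950, chromosome 2, 163506808 to 163572910, plus strand, mm10) encodes a nuclear receptor that binds the promoters of genes for plasma proteins, lipid transport and bile acid synthesis. It is transcribed from an upstream promoter, P2, and a downstream promoter, P1, whose transcripts differ in their first exon and so in the start of the protein. P1 is known as the promoter of adult liver and P2 for its use in fetal liver, pancreas and gut. In the annotation used, GENCODE M21, the P2 transcript is Hnf4a-205 and the P1 transcripts are Hnf4a-201, Hnf4a-202 and the noncoding Hnf4a-203; the P2 start lies 40380 bases upstream of that of Hnf4a-201. The coding parts of the 2 first exons are shown because they are where the proteins made from P2 and P1 begin differently, with the start codon in capitals. The first lies at chr2:163506939-163506987 and the second at chr2:163547305-163547419, both on the plus strand of GRCm38 and read from the GENCODE transcripts.
Hnf4a-205, P2 exon 1: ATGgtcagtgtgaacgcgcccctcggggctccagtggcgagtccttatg
Hnf4a-201, P1 exon 1: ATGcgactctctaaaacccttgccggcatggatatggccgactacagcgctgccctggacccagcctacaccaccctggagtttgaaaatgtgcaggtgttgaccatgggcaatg

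The stretches before the 2 starts, from the RefSeq promoter table (GRCm38.p6), are shown because they differ in the exact motif strings they match. Capitals mark these matches. The P2 stretch, chr2:163506607-163506807, ends at the base before the start of Hnf4a-205, and the P1 stretch is chr2:163546905-163547154, both on the plus strand.
Hnf4a P2: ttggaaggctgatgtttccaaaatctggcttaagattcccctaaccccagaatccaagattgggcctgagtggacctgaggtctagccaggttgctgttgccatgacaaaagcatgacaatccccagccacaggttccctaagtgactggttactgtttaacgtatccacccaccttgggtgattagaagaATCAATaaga
Hnf4a P1: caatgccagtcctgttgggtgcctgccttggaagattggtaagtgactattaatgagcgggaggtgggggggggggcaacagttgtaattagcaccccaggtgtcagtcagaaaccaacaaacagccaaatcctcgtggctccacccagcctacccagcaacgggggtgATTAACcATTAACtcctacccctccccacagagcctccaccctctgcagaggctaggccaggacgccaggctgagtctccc

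In the P1 stretch, capitals mark the HNF1 half-site GTTAAT, matched on the minus strand at 81 and 74 bases before the RefSeq start at 163547155. This motif occurs on either strand in 6.43% of 32851 promoter windows of 250 bases. In the P2 stretch, capitals mark ATCAAT, a form of the core that ONECUT factors bind, 59 bases before the RefSeq start at 163506857 and in 6.72% of windows. A GATA core, AGATAA, begins 52 bases before that start and runs past the printed end; 9.99% of windows hold one. A match is a description of the letters and no evidence of binding. A search for exact strings misses other forms of a site, so a stretch without a match may still hold one.

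Hnf4a stood at 59.4, 47.9, 85.1 and 74.3 scaled TPM across HpC1-HpC4, at 39.6, 52.1 and 56.1 across pC1-pC3, and at 366.5, 349.6 and 320.9 across H1-H3. The HpC and pC libraries overlapped and all 7 lay far below H. Means with SD were 66.7 ± 16.4 in HpC, 49.3 ± 8.61 in pC and 346 ± 23.1 in H (n = 4, 3 and 3). The factor was called lower in HpC than in H, by -2.39 ± 0.21 (SE; limma adjusted p = 4.79e-06), and in pC than in H, by -2.80 ± 0.22 (adjusted p = 2.63e-06). Both calls also held on TPM as deposited, at -1.26 and -1.25. The difference between HpC and pC, 0.41 ± 0.21, was not called (adjusted p = 0.346). With limma array weights it was 0.65 (adjusted p = 0.0314). These weights were 0.436, 0.299, 2.756 and 0.702 across HpC1-HpC4, so most weight within HpC fell on HpC3, the HpC library with the highest Hnf4a. Leaving out HpC1 and HpC2 gave no call.

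The P2 transcript stood at 37.0, 29.6, 55.0 and 50.6 scaled TPM across HpC1-HpC4, at 27.0, 33.8 and 38.6 across pC1-pC3, and at 155, 158 and 126 across H1-H3. The P1 transcripts together stood at 22.4, 17.8, 29.4 and 22.3 across HpC1-HpC4, at 12.3, 16.9 and 14.4 across pC1-pC3, and at 189.6, 181 and 186 across H1-H3. P2 was thus above P1 in all 7 cholangiocyte libraries and below P1 in the 3 hepatocyte libraries, while both were highest in H. The P2 share of all Hnf4a TPM was 62.3%, 61.7%, 64.7% and 68.1% across HpC1-HpC4, 68.2%, 64.9% and 68.8% across pC1-pC3, and 42.4%, 45.3% and 39.4% across H1-H3. A share does not depend on scaling between libraries. It averaged 64.2 ± 2.89% in HpC, 67.3 ± 2.10% in pC and 42.4 ± 2.96% in H (SD; n = 4, 3 and 3). HpC exceeded H by 21.9 percentage points in a two-sided exact permutation test (p = 0.02857, the smallest that 4 against 3 libraries allow; 0.0857 adjusted over the 3 comparisons). The excess of pC over H was 24.9 points (exact permutation p = 0.10, the smallest that 3 against 3 allow), and HpC minus pC was -3.08 points (exact permutation p = 0.143). No adjusted p passed 0.05, and the groups overlapped between HpC and pC only.

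**Figure D2:**
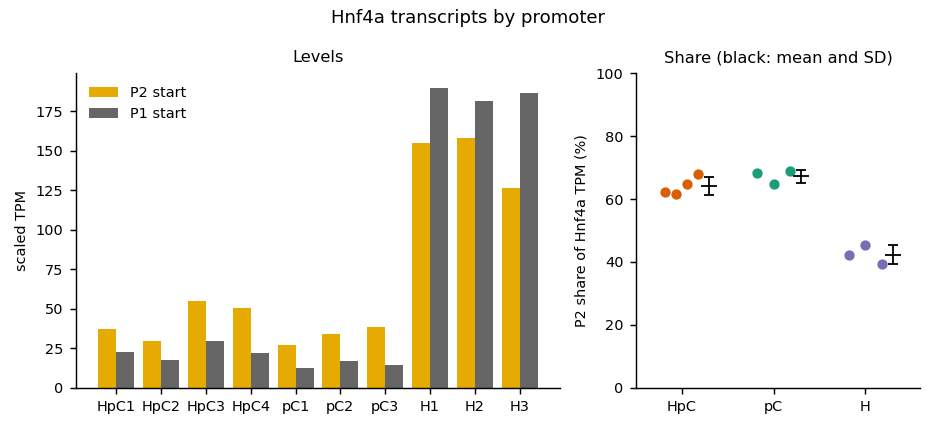
Left, scaled TPM of the Hnf4a transcripts that start at P2 (yellow) and at P1 (grey) in each library; right, the P2 share of Hnf4a TPM in percent, with points for libraries and black marks for mean and SD. The shares of the 7 HpC and pC libraries lie between 61.7% and 68.8% and those of H between 39.4% and 45.3%.

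The transcript models limit this share. Hnf4a-205 is a partial model of 431 bases and 3 exons, whereas Hnf4a-201 has 4356 bases and 10 exons, and no full-length P2 model is in the tables. Of the 382 windows of read length (50 bases) in Hnf4a-205, 177 occur in no other Hnf4a class, while 3951 of 4437 windows of the P1 class are its own. Reads from the shared downstream exons of a P2 transcript can therefore be given to P1 models, and the values hold levels per model, not molecules from each promoter. Between groups, Hnf4a-201 differed by -2.96 in HpC against H and by -3.59 in pC against H, and Hnf4a-205 by -1.78 and -2.12. All 4 differences were called over the 36716 transcripts tested, of which 40.4% were called in HpC against H and 40.8% in pC against H. On TPM as deposited the 2 differences of Hnf4a-201 were still called and those of Hnf4a-205, -0.66 and -0.58, were not.

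The 3 FOXA genes moved in different directions. Foxa1 (ENSMUSG00000035451, chromosome 12, 57540628 to 57546916, minus strand) stood at 20.7, 28.5, 43.5 and 44.2 scaled TPM across HpC1-HpC4, at 37.6, 41.9 and 42.7 across pC1-pC3, and at 9.08, 9.80 and 9.42 across H1-H3. Every cholangiocyte library was above every hepatocyte library, and HpC1 and HpC2 were the lowest of the cholangiocyte libraries. The difference was 1.69 ± 0.24 in HpC against H (limma adjusted p = 0.000164) and 2.00 ± 0.26 in pC against H (adjusted p = 8.42e-05), and it was larger on TPM as deposited, 2.71 and 3.43. Between HpC and pC it was -0.31 ± 0.24 (adjusted p = 0.557).

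Foxa3 (ENSMUSG00000040891, chromosome 7, 19013284 to 19023538, minus strand), a FOXA gene of liver and other endoderm, had the reverse order. It stood at 7.23, 1.65, 2.11 and 1.44 scaled TPM across HpC1-HpC4, at 1.51, 1.87 and 1.22 across pC1-pC3, and at 13.8, 17.0 and 16.8 across H1-H3. The 7 cholangiocyte libraries were all below H, and HpC1, the library with the high pancreatic acinar sum, was the highest of them. The difference was -2.23 ± 0.37 in HpC against H (limma adjusted p = 0.000468; -2.63 without HpC1) and -2.74 ± 0.40 in pC against H (adjusted p = 0.000186), both called on TPM as deposited too. HpC against pC gave 0.51 ± 0.37 (adjusted p = 0.523), and 0.11 without HpC1.

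Foxa2 (ENSMUSG00000037025, chromosome 2, 148042877 to 148046969, minus strand) stood between these patterns. Its level was 26.8, 14.5, 29.6 and 25.2 scaled TPM across HpC1-HpC4, 45.1, 43.9 and 25.8 across pC1-pC3, and 51.2, 64.5 and 58.9 across H1-H3. HpC was below H throughout, pC1 and pC2 were between them and pC3 was within the range of HpC. HpC was called lower than H, by -1.28 ± 0.27 (limma adjusted p = 0.00202), but on TPM as deposited the groups overlapped and the difference was -0.18 (adjusted p = 0.692). pC against H was -0.63 ± 0.29 (adjusted p = 0.0824), 0.90 on TPM as deposited (adjusted p = 0.0574), and was called when HpC2 was left out of the common fit (adjusted p = 0.0300). HpC against pC was -0.65 ± 0.27 (adjusted p = 0.236).

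Ratios within a library do not depend on scaling either. Foxa1 over Foxa3 was 2.86, 17.3, 20.7 and 30.7 across HpC1-HpC4, 24.9, 22.4 and 35.0 across pC1-pC3, and 0.660, 0.576 and 0.561 across H1-H3. Foxa1 over Foxa2 was 0.773 to 1.97 in HpC, 0.834 to 1.66 in pC and 0.152 to 0.177 in H. Foxa1 was thus the least abundant FOXA gene in hepatocytes and the first or second most abundant in each cholangiocyte library, with no overlap between H and either cholangiocyte group in both ratios.

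Cebpa (ENSMUSG00000034957, chromosome 7, 35119293 to 35121928, plus strand), a regulator of gluconeogenesis and of the urea cycle enzymes, stood at 29.2, 43.0, 32.1 and 32.0 scaled TPM across HpC1-HpC4, at 24.8, 40.6 and 32.3 across pC1-pC3, and at 179, 177 and 141 across H1-H3. HpC and pC lay in the same range and H stood above both. The difference was -2.26 ± 0.20 in HpC against H (limma adjusted p = 5.00e-06) and -2.33 ± 0.21 in pC against H (adjusted p = 6.74e-06), with 0.08 ± 0.20 between HpC and pC (adjusted p = 0.877). On TPM as deposited the first remained called at -1.13, and the second, -0.79, was not (adjusted p = 0.0794).

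Cebpb (ENSMUSG00000056501, chromosome 2, 167688915 to 167690418, plus strand) is the family member known for the acute phase response and for induction in stressed or regenerating liver. It stood at 69.5, 115.5, 72.8 and 69.8 scaled TPM across HpC1-HpC4, at 44.6, 71.7 and 60.7 across pC1-pC3, and at 122, 146 and 243 across H1-H3. Scaled values of HpC were below H, with HpC2, the library with squamous transcripts, close to H1. HpC was called lower than H, by -1.02 ± 0.28 (limma adjusted p = 0.00968), and pC lower than H, by -1.48 ± 0.30 (adjusted p = 0.00171), but neither direction held on TPM as deposited, where the groups overlapped and the differences were 0.11 (adjusted p = 0.812) and 0.07 (adjusted p = 0.883). HpC against pC was 0.46 ± 0.28 (adjusted p = 0.437). The ratio of Cebpb to Cebpa, free of scaling, was 2.38, 2.69, 2.26 and 2.18 across HpC1-HpC4, 1.79, 1.77 and 1.88 across pC1-pC3, and 0.679, 0.826 and 1.72 across H1-H3. The order of this ratio was HpC above pC above H with no overlap, though H3 came close to pC.

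Prox1 (ENSMUSG00000010175, chromosome 1, 190118035 to 190170714, minus strand) encodes a homeodomain protein needed for hepatoblasts to spread in the embryonic liver and known to bind HNF4A and repress its targets. It stood at 28.0, 14.8, 27.8 and 34.5 scaled TPM across HpC1-HpC4, at 95.8, 115 and 67.0 across pC1-pC3, and at 67.1, 61.2 and 61.0 across H1-H3. All 4 HpC libraries were below all pC and all H libraries, and pC and H met at 67. The means were 26.3 ± 8.28 in HpC, 92.7 ± 24.4 in pC and 63.1 ± 3.46 in H (SD; n = 4, 3 and 3). HpC was called lower than pC, by -1.81 ± 0.27 (limma adjusted p = 0.00525), and the pC mean was 3.53 times the HpC mean. This call held under all 20 alternatives in processing and libraries, where the difference ranged between -2.24 and -1.52 and the adjusted p reached 0.0331 at most; without HpC1 and HpC2 it was -1.52. HpC was also called lower than H, by -1.29 ± 0.27 (adjusted p = 0.00224), but on TPM as deposited the groups overlapped at -0.18 (adjusted p = 0.698). pC against H was 0.52 ± 0.29 (adjusted p = 0.156) and was called higher in pC on TPM as deposited, at 2.05 (adjusted p = 0.000903), and when HpC2 was left out of the common fit (adjusted p = 0.0480).

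Prox1 has 3 coding transcripts with a coding length of 2211 bases each, which differ outside it. Prox1-203 was lower in HpC than in pC by -1.88 (limma adjusted p over transcripts = 0.00940) and Prox1-202 by -1.63 (adjusted p = 0.0208), while Prox1-201, which starts 1315 bases downstream of Prox1-202, missed the threshold at -1.41 (adjusted p = 0.0505). These were the 2 of 19 factor transcripts called between HpC and pC, beside 1.53% of all transcripts. Both calls were lost without pC2 (adjusted p = 0.109 for Prox1-202 and 0.0575 for Prox1-203). That of Prox1-202 was also lost without pC1 (adjusted p = 0.0900), without HpC3 (adjusted p = 0.0578) and without HpC1 and HpC2 (adjusted p = 0.0511). With these libraries left out, the differences lay between -1.73 and -1.37. Both calls were lost as well with the replicate number as a block in the limma fit. The differences were then -1.78 for Prox1-202 (adjusted p = 0.0791) and -2.03 for Prox1-203 (adjusted p = 0.0556). Reads may be shared with the antisense gene Prox1os, which holds 84 of the 50-base windows of Prox1; its deposited level was 0.131 to 0.245 TPM in HpC, 1.38 to 2.76 TPM in pC and 0.656 to 2.43 TPM in H.

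Because Prox1 is a marker of lymphatic endothelium, other markers of that cell type were read beside it. Of the 6, Ccl21a was at 0 in all HpC libraries and Mmrn1 had means of 0.0111 in HpC and 0.0197 in pC, in scaled TPM. The summed level of the 6 was 36.3 to 67.0 scaled TPM in HpC, 21.8 to 29.9 in pC, against 0.563 to 1.69 in H, and its members went different ways. Pdpn and Flt4 were called higher in HpC than in pC. Reln averaged 11.3 in HpC and 11.2 in pC and was not called. Lyve1, too low to be tested, was 0.0145 to 0.2057 in HpC and 0.2065 to 0.285 in pC, lower in every HpC library. Their part in the level of Prox1 was not tested. Prox1 over Hnf4a, a ratio within each library, was 0.472, 0.309, 0.327 and 0.465 across HpC1-HpC4, 2.42, 2.22 and 1.19 across pC1-pC3, and 0.183, 0.175 and 0.190 across H1-H3. The 3 groups did not overlap, with HpC between pC and H and nearer to H.

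Creb3l3 (ENSMUSG00000035041, chromosome 10, 81084324 to 81098874, minus strand) encodes a membrane-bound factor of the endoplasmic reticulum that is cut free by proteases and turns on fasting and acute phase genes. It stood at 17.7, 4.34, 9.17 and 4.16 scaled TPM across HpC1-HpC4, at 2.29, 5.42 and 2.17 across pC1-pC3, and at 271, 249 and 271.5 across H1-H3. No other factor separated the cell types as widely: H was 29.9 times the HpC mean and 80.2 times the pC mean. The difference was -4.96 ± 0.43 in HpC against H (limma adjusted p = 4.78e-06) and -6.03 ± 0.46 in pC against H (adjusted p = 2.05e-06), and both were called on TPM as deposited. HpC against pC was 1.07 ± 0.43 (adjusted p = 0.230), with HpC1 the highest library, and 0.69 without it. Beside these values, the hepatocyte marker sums given above were likewise lower in HpC and pC than in H, in HpC to between 2934 and 5627 against at least 76070 in H, and their sums were higher in HpC than in pC, though 0 of the 10 were called there by limma; their part in the level of Creb3l3 was not tested.

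Gata4 (ENSMUSG00000021944, chromosome 14, 63198922 to 63271692, minus strand), a zinc finger factor of the early liver bud, of heart and of sinusoidal endothelium, was the least abundant factor. It stood at 5.72, 0.558, 1.42 and 0.740 scaled TPM across HpC1-HpC4, at 0.440, 0.829 and 0.717 across pC1-pC3, and at 5.82, 4.63 and 3.94 across H1-H3. HpC1 was within the range of H and the other 3 HpC libraries were below it. pC was called lower than H, by -1.80 ± 0.46 (limma adjusted p = 0.00711), but not on TPM as deposited (-0.80, adjusted p = 0.0688). HpC against H was -1.16 ± 0.43 (adjusted p = 0.0409), a call lost in 14 of 19 alternatives, among them leaving out any one of HpC2, HpC3, HpC4 or of the pC or H libraries, where the adjusted p was 0.0534 to 0.117. Without HpC1 it was -1.62 (adjusted p = 0.000199). HpC against pC was 0.64 ± 0.43 (adjusted p = 0.489).

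**Figure D3:**
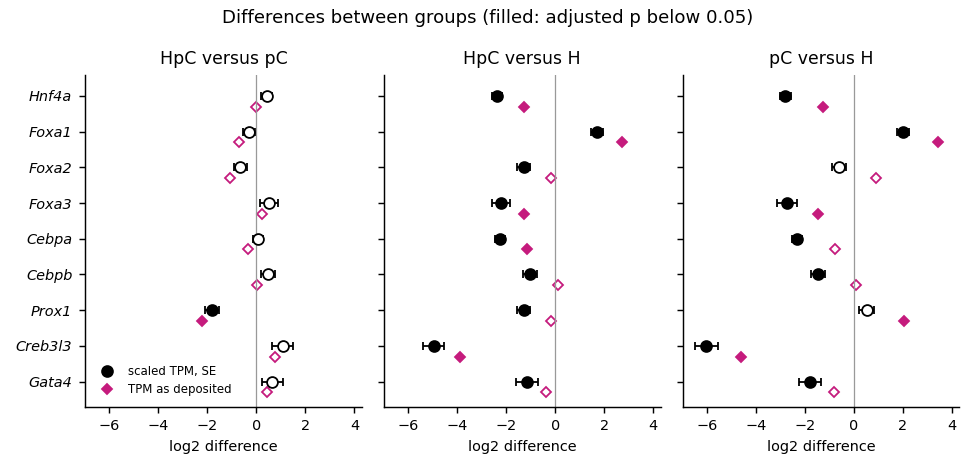
Difference of each factor in the 3 comparisons on the log2(TPM + 1) scale (horizontal axis); black circles are scaled TPM with SE, pink diamonds TPM as deposited, and filled symbols have an adjusted p below 0.05. Prox1 is the filled factor in HpC versus pC, and against H the pink diamonds lie to the right of the circles for every factor.

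As shares of their own summed TPM, which again needs no scaling, the 9 factors had a different make-up in each group. Hnf4a took 23.5 ± 4.52% in HpC, 15.6 ± 3.29% in pC and 31.6 ± 2.74% in H (SD; n = 4, 3 and 3). Creb3l3 took 3.19 ± 2.44% in HpC, 0.995 ± 0.394% in pC and 24.1 ± 0.956% in H. The largest mean share in pC was that of Prox1 (29.0 ± 5.09%) and in H that of Hnf4a. In HpC it was that of Cebpb (29.3 ± 8.95%), which HpC2 raised with 42.7%; Hnf4a exceeded Cebpb in HpC3 and HpC4, and without HpC2, a setting added after the values were seen, the means were 25.5% for Hnf4a and 24.9% for Cebpb. Prox1 took 9.32 ± 2.83% in HpC and 5.76 ± 0.390% in H, and Foxa1 took 12.0 ± 3.50% in HpC, 13.0 ± 1.78% in pC and 0.860 ± 0.0417% in H. Shares of a sum are not independent of each other. The sum itself was 264 to 304 scaled TPM in HpC, 289 to 374 in pC, against 1079 to 1126 in H.

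**Figure D4:**
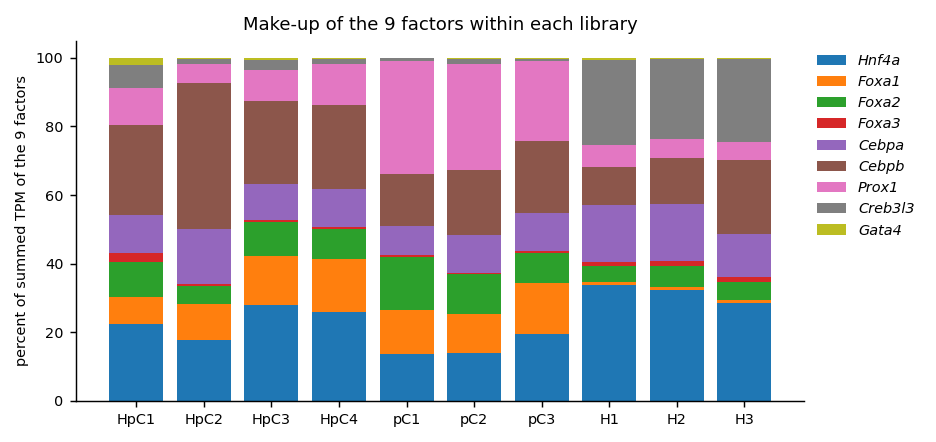
Share of each factor in the summed TPM of the 9 factors (vertical axis, percent) for every library. Prox1 (pink) fills 23.2% to 32.8% in pC and 5.46% to 12.1% in HpC, and Creb3l3 (grey) fills 23.1% to 25.0% in H.

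Across the 10 libraries, log2 levels of Hnf4a correlated at 0.96 with Cebpa, 0.96 with Creb3l3 and 0.90 with Foxa3, and at -0.89 with Foxa1. Foxa1 had negative correlations with all 8 other factors, between -0.97 and -0.10, and Prox1 had its highest with Foxa2, 0.76. These Pearson values are descriptions over libraries that fall into 3 groups. The genes most like Hnf4a by the same measure were Oaf (0.99), Sec24a (0.99) and Dennd5b (0.99), those most like Creb3l3 were Lcat, Wbp1l and Tmem37 (0.9978, 0.9973 and 0.9965), and those most like Foxa1 were Slc12a4, Gfra4 and Spty2d1 (each 0.99). Those most like Prox1 were Proser2 (0.97), Elmo1 (0.97) and Prob1 (0.96). For Foxa2 they were Rnf130 (0.97), Hgsnat (0.97) and Prkacb (0.96), for Foxa3 Gucd1, Gamt and Msrb1 (each 0.99), and for Cebpa P2ry4, Dpm1 and Slc25a20 (each 0.99). For Cebpb they were Epas1 (0.96), Fam69a (0.95) and Mad1l1 (0.95). Those most like Gata4 were Fgf21 (0.98), Sel1l (0.97) and Edem3 (0.97), of which Fgf21, a hormone gene of liver and pancreas, stood at 46.2 scaled TPM in HpC1, at 0.703 to 2.52 in the other HpC libraries, at 0 to 0.250 in pC and at 12.4 to 20.9 in H.

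Relatives of the factors in the same protein families were read from a list of 14 genes, of which 9 were tested. Against H, 7 of the 9 were called higher and 2 lower in HpC, and the same counts were called in pC, with a median difference of 0.94 in HpC and 1.66 in pC beside 0.08 and 0.11 over all genes. Over all genes, 30.7% were called higher and 29.2% lower in HpC, and 31.1% and 28.6% in pC. On TPM as deposited, 7 relatives were called higher in HpC and 8 in pC, and 0 lower in either group. On that scale 61.4% and 71.9% of all genes were called, in either direction. Several relatives thus had the opposite order to the listed factor. Creb3l1, a relative of Creb3l3 known from secretory and matrix-producing cells, averaged 10.1 ± 3.27 scaled TPM in HpC, 19.0 ± 3.20 in pC, against 0.209 ± 0.0743 in H (SD; n = 4, 3 and 3), a difference of 3.16 in HpC against H (limma adjusted p = 9.75e-07) and of 4.04 in pC against H (adjusted p = 3.46e-07). Cebpd averaged 22.3 ± 11.4 in HpC, 16.5 ± 6.97 in pC and 3.31 ± 0.975 in H, differences of 2.33 (adjusted p = 0.000357) and 1.98 (adjusted p = 0.00169). Gata6, named after its values were seen, stood at 14.3, 11.0, 20.1 and 22.2 across HpC1-HpC4, at 31.4, 28.1 and 26.5 across pC1-pC3, and at 3.33, 3.96 and 3.84 across H1-H3, so that Gata6 exceeded Gata4 in each cholangiocyte library and Gata4 exceeded Gata6 in each hepatocyte library. Hnf4g, also named afterwards, stood at 0.561 to 2.25 in HpC and 2.10 to 3.46 in pC and was listed at 0 in all 3 H libraries.

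Between HpC and pC, 2 of the 9 relatives were called, beside 4.54% of all genes. Gata5, a factor of heart and endoderm, averaged 1.84 ± 0.375 scaled TPM in HpC and 0.536 ± 0.184 in pC, higher in HpC by 0.88 ± 0.17 (limma adjusted p = 0.0180). The 6 mesothelial markers summed to 33.1 to 54.6 in HpC, 24.3 to 30.9 in pC and 0.643 to 1.40 in H. Msln, Upk1b and Wt1 were called higher in HpC than in pC and Gpm6a was called lower, and their part in this difference was not tested. Creb3l4 averaged 0.666 ± 0.175 in HpC and 2.17 ± 0.462 in pC, lower in HpC by -0.93 ± 0.16 (adjusted p = 0.0116), and was listed at 0 in H. The call of Gata5 was lost on TPM as deposited, with a pseudocount of 0.1, with only the 2 groups fitted and without HpC3, pC2 or pC3. That of Creb3l4 was lost without pC2.

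Other liver-enriched transcription factors made a list of 17, all tested. Against H, 13 were called lower and 1 higher in HpC, and 12 lower and 2 higher in pC, with medians of -2.33 and -2.04. Over all genes, 29.2% were called lower and 30.7% higher in HpC, and 28.6% and 31.1% in pC. On TPM as deposited the counts of this list for pC were 7 lower and 6 higher, beside 71.9% of all genes in either direction. The widest differences were those of the xenobiotic receptor gene Nr1i3, 1.29 ± 1.27 scaled TPM in HpC and 121 ± 26.3 in H, and of the fatty acid receptor gene Ppara, 5.73 ± 3.41 in HpC and 135 ± 45.5 in H. Between HpC and pC the called member was Nr5a2, a nuclear receptor of bile acid metabolism, which stood at 13.0, 5.86, 9.38 and 11.9 across HpC1-HpC4, at 24.2, 25.2 and 18.5 across pC1-pC3, and at 21.9, 25.6 and 25.9 across H1-H3. As for Prox1, every HpC library was below every pC and H library in scaled TPM, while HpC and H overlapped on TPM as deposited. The difference of Nr5a2 in HpC against pC was -1.14 ± 0.24 (limma adjusted p = 0.0246). Unlike that of Prox1, this call was lost with only the 2 groups fitted and without HpC3, pC1 or pC2. Onecut1, one of the floxed genes, averaged 32.0 ± 12.2 in HpC, 72.6 ± 9.44 in pC and 81.0 ± 32.2 in H, which carried Cre like HpC. It was not called between HpC and pC (limma adjusted p = 0.0804). HpC was called lower than H, by -1.30 (adjusted p = 0.00768), and pC against H was -0.08 (adjusted p = 0.866).

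Partners and processing enzymes of the factors were 10 genes, of which 9 were tested; limma called 0 of them between HpC and pC, where 1 higher and 1 lower had an unadjusted p below 0.05. Against H, 4 were called higher in HpC, beside 30.7% of all genes, and 5 higher and 1 lower in pC, beside 31.1% and 28.6%. On TPM as deposited 8 were called higher in each, where 61.4% of all genes were called in HpC and 71.9% in pC, in either direction. Trib1, whose product targets C/EBP proteins for degradation, averaged 94.96 ± 28.6 scaled TPM in HpC, 58.9 ± 11.0 in pC, against 16.5 ± 4.58 in H, higher in HpC than in H by 2.43 (adjusted p = 2.85e-05). Ppargc1a, a coactivator of HNF4A, averaged 14.7 ± 6.49 in HpC, 26.2 ± 7.04 in pC and 7.37 ± 0.743 in H (0.84 in HpC against H, adjusted p = 0.0251). Mbtps1, a protease that cuts CREB3L3 and was named after its values were seen, averaged 19.2 ± 0.812 in HpC, 20.4 ± 1.74 in pC and 19.0 ± 1.42 in H.

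Known target genes of the factors were read from lists written from general knowledge; a gene may stand in several lists. All 15 HNF4A targets, beside 29.2% and 28.6% of all genes, were called lower in HpC than in H and in pC than in H. Their medians were -5.75 and -6.40 beside 0.08 and 0.11 over all genes. The widest in HpC were Apoa2, an apolipoprotein gene, at 239 ± 185 scaled TPM in HpC and 25750 ± 2346 in H, and Cyp7a1, the rate-limiting enzyme of bile acid synthesis, at 6.95 ± 6.40 in HpC and 826 ± 133 in H. Between HpC and pC, 2 of the 15 were called, both higher in HpC, beside 1.99% of all genes called higher. Trf, the transferrin gene, stood at 1323, 689.7, 834.6 and 400.1 across HpC1-HpC4, at 165, 147 and 43.3 across pC1-pC3, and at 13710 to 18800 in H, higher in HpC than in pC by 2.85 ± 0.49 (limma adjusted p = 0.0102). Apob stood at 169.7, 86.2, 133.8 and 60.7 across HpC1-HpC4 and at 26.6, 30.7 and 8.21 across pC1-pC3, higher in HpC by 2.40 ± 0.45 (adjusted p = 0.0148). Without HpC1 and HpC2 no target of this list was called between HpC and pC, and 1 was with only these 2 groups fitted.

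Of 6 tested FOXA targets, 6 were called lower in HpC than in H and 5 in pC than in H, beside 29.2% and 28.6% of all genes. Pck1 and Tat, genes of gluconeogenesis and tyrosine breakdown, had the widest differences in HpC against H, -6.99 and -5.16. Slc2a2, the glucose transporter gene, was the exception in pC: it stood at 67.0, 61.8, 75.7 and 86.0 scaled TPM across HpC1-HpC4, at 146.6, 144.4 and 109.8 across pC1-pC3, and at 134.5, 138.7 and 149.9 across H1-H3. In scaled TPM, like Prox1 and Nr5a2, it was lower in every HpC library than in every pC and H library. On TPM as deposited its HpC and H libraries overlapped, and 1 FOXA target was called higher in pC than in H. On that scale 71.9% of all genes were called in pC against H, in either direction. The difference of Slc2a2 was -0.87 ± 0.16 in HpC against pC (limma adjusted p = 0.0148). This call was lost on TPM as deposited, with only the 2 groups fitted, without pC1, without pC2 and without HpC1 and HpC2 together.

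All 8 metabolic C/EBP targets were called lower in both groups than in H, beside 29.2% of all genes in HpC and 28.6% in pC. Their medians were -5.55 in HpC and -6.03 in pC. Cps1, which starts the urea cycle, was among them at -6.32 in HpC. limma called 0 of the 8 between HpC and pC, beside 4.54% of all genes, and 1 of the 8 had an unadjusted p below 0.05 there. Of the 8 acute phase targets, 7 were called lower in each group than in H, beside the same 29.2% and 28.6% of all genes. Orm1 and Saa1 were lower by -6.31 and -6.10 in HpC. The target not called, Lcn2, averaged 95.1 ± 19.5 scaled TPM in HpC, 149 ± 114 in pC, against 68.2 ± 17.0 in H. Between HpC and pC this list held a call in each direction, beside 1.99% of all genes called higher and 2.55% lower. Hp, the haptoglobin gene, averaged 136 ± 79.9 in HpC and 14.0 ± 8.69 in pC, and Crp averaged 26.0 ± 7.82 in HpC and 76.5 ± 16.8 in pC. Hp was higher in HpC by 3.24 ± 0.50 (adjusted p = 0.00571) and Crp lower by -1.55 ± 0.26 (adjusted p = 0.00832); the call of Crp was lost without pC2.

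Of the 7 tested CREB3L3 targets, 6 were called lower in HpC than in H and 7 in pC than in H, beside 29.2% and 28.6% of all genes. The apolipoprotein genes Apoa4 and Apoa5 led them at -7.95 and -6.84 in HpC. Fgf21 was the target not called in HpC, with the HpC1 value given above, and all 7 were called when HpC1 and HpC2 were left out. In every one of these lists the hepatocyte markers moved in the same direction against H, 10 of 10 lower, and some targets are themselves among those markers. The part of these markers in the levels of the targets was not tested.

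**Figure D5:**
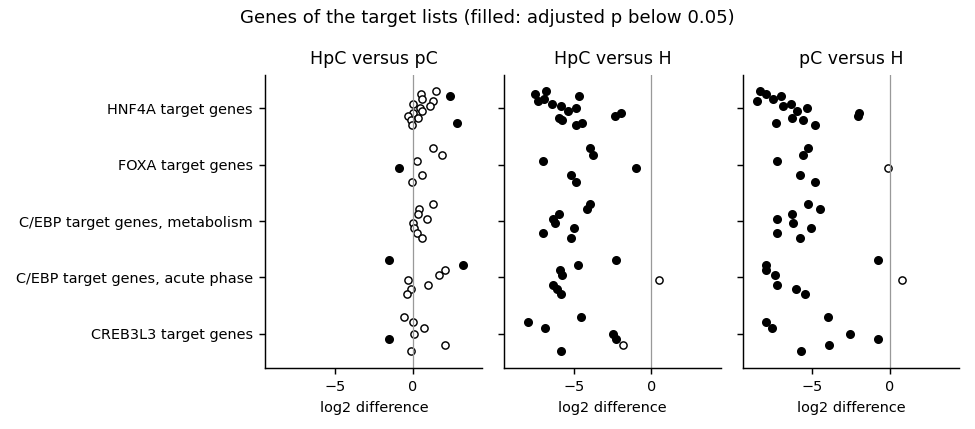
Differences on the log2(scaled TPM + 1) scale (horizontal axis) of the tested genes of 5 target lists in the 3 comparisons; each circle is a gene, filled where its adjusted p is below 0.05. In HpC versus pC most circles are open and spread to both sides of 0, while against H nearly all lie to the left.

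The forkhead core TGTTTAC was found 141 bases before the RefSeq start of Foxa1, a motif in 3.17% of all windows. A GATA core lay 138 bases before the Creb3l3 start at 81092591, which is inside the gene. The window of the upstream Creb3l3 start, at 81098872, held no GATA core. Of the 3 windows of Foxa2, that of the start at 148045464 held an HNF1 half-site and a GATA core. That of the start at 148046969 held an ATCAAT. The other ONECUT core, ATCGAT, occurs in 0.728% of windows and the other forkhead core, TATTTAC, in 2.73%. The C/EBP core TTGCNNAA occurs in 9.56%, and the CREB core TGACGT in 6.47%. For HNF4 the core CAAAGTCC occurs in 1.20% of windows. The second form, CAAAGGTC, occurs in 1.01%. All were searched on both strands, and none of these 6 was found in the windows of the factors. The table held 13 windows for 8 of the 9 factors.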

How the data were processed

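Bulk RNA-seq of sorted mouse liver cells was analysed from 10 libraries, grouped by the labels. The authors deposited TPM values per transcript; kallisto, DESeq and mm10 are named per the submitters' processing notes, without versions, and per the labels' protocols reads were single-end of 50 bases from a low-input kit. TPM corrects for transcript length and sums to the same total in every library, so the depth of each library is unknown and no counting error could be given.

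Transcripts were matched to GENCODE M21 (81927 of 85276 matched; the 3349 others held 4.22% to 9.06% of TPM) and summed to 29972 genes. Each library was divided by an unweighted trimmed-mean factor (30% of log ratios and 5% of levels trimmed). Genes at 1 TPM or more in at least 3 libraries were tested on log2(scaled TPM + 1) in 1 limma fit with trend over the 3 groups (limma 3.58.1, R 4.3.3), with Benjamini-Hochberg adjustment over 14765 genes, or 36716 transcripts. A fold on this scale understates the change of low genes. The P2 share of Hnf4a was tested by exact permutation over libraries. Summaries and figures used Python 3.11.15, pandas 2.3.3 and matplotlib 3.10.9, and the fits were tested on simulated data. No pairing was used, because the labels give same-numbered libraries different ages, so that the numbers name no shared animal. Same-numbered libraries also did not deviate together.

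The members and lists were chosen with earlier results of these data known. Named list genes are those called between HpC and pC, up to 4, and the 2 with the widest difference between HpC and H; the 3 genes most like each factor were taken by Pearson correlation of log2 levels over 10 libraries. The alternatives were TPM as deposited, median of ratios scaling, protein-coding nuclear genes, a pseudocount of 0.1, no filter and a filter at 5 TPM, the 2 groups compared alone, array weights, a replicate block, and leaving out libraries.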

Additional observations from a re-analysis of the deposited data

Results flagged for a closer look

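Within the 4 HpC libraries, the gap between 1 library and the nearest other, divided by the range, passed Dixon's 95% critical value for 3 factors. Chance flags about 1 in 20 groups. Foxa3 stood at 7.232 scaled TPM in HpC1 (gap over range 0.885), as did its single transcript Foxa3-201 at 7.232. Gata4 stood at 5.724 scaled TPM in HpC1 (0.833). Beside these, the pancreatic acinar markers summed to 153200 deposited TPM and the islet markers to 282.7 in HpC1. Cebpb stood at 115.5 scaled TPM in HpC2 (0.930), as did its single transcript Cebpb-201 at 115.5, beside a squamous marker sum of 44620 deposited TPM in HpC2. The part of these markers in the 3 values was not tested.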

How the results depend on the processing

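On TPM as deposited, Cebpb and Cebpb-201 reversed to 0.107 in HpC against H and 0.0703 in pC against H. Prox1-202 reversed to 0.0669 in HpC against H. Of the factors, 5 were called on that scale in HpC against H, beside 61.4% of all genes. So were 9 factor transcripts, for which the share over all transcripts was not taken. The cause of these changes was not tested. Between HpC and pC, the count of genes called, 671, was 373 with only those 2 groups fitted, 1797 with array weights and 284 to 808 with 1 library left out (411 without HpC3, 362 without pC1, 284 without pC2). Factors called there were 2 with array weights. Factor transcripts called there were 0 under the replicate block (adjusted p = 0.0791 for Prox1-202 and 0.0556 for Prox1-203), 1 without HpC1 and HpC2 together, and 0 to 2 with 1 library left out (1 without HpC3, 1 without pC1, 0 without pC2). Same-numbered libraries differed in age and correlated between -0.046 and 0.084 in their deviations, so the numbers were not taken as pairs. The replicate block thus groups libraries that the labels do not link. With it 573, 8183 and 8696 genes and 1, 8 and 7 factors were called in the 3 comparisons, and the call of Gata5 in HpC against pC was lost.

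Of 537 alternative values for single factors, 503 kept direction and call, 18 lost the call, 7 gained it and 9 changed sign. Beside the 2 of Cebpb, 7 were called in neither setting. On TPM as deposited these were Hnf4a (-0.00916) and Cebpa (-0.34) in HpC against pC and Foxa2 in pC against H (0.898). Cebpa in HpC against pC was also -0.0464 with array weights, -0.0379 without HpC2 and -0.099 without pC1, and Foxa1 there was 0.105 without HpC1 and HpC2. Uncalled transcripts changed sign 13 times: on TPM as deposited Hnf4a-205 (-0.0742) and Cebpa-201 (-0.34) in HpC against pC, Foxa2-202 in HpC against H (0.272), and Foxa2-201 (0.516), Foxa2-203 (0.0341), Foxa2-204 (0.978) and Prox1-201 (0.87) in pC against H. With libraries left out these were, in HpC against pC, Foxa1-201 (0.105) and Foxa2-203 (0.224) without HpC1 and HpC2, Cebpa-201 (-0.0379 without HpC2, -0.099 without pC1), and Foxa2-202 in pC against H (-0.119 without pC1, -0.0218 without H3). With 1 library left out, Cebpa and Cebpa-201 in HpC against pC ranged between -0.099 and 0.244 and Foxa2-202 in pC against H between -0.119 and 0.279. No adjusted p of the P2 share was below 0.05 in the main setting, so no call could be lost. With 1 library left out, the share in HpC minus pC was -4.37 to -2.25 points. It was then 20.4 to 23.3 in HpC minus H and 23.5 to 26.4 in pC minus H. A filter at 5 TPM gave no value for Gata4. Without read numbers, the precision of low levels such as those of Gata4 is unknown.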
